A study of Mus musculus with 6 samples.

Results

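The genes described here encode antioxidant and thiol redox enzymes, which remove superoxide and peroxides, keep glutathione and thioredoxin in their reduced form, and repair oxidised proteins. A list of 39 mouse gene symbols was chosen by the function of the products: glutathione peroxidases, peroxiredoxins, superoxide dismutases, catalase, the thioredoxin system, the enzymes of glutathione synthesis and recycling, glutaredoxins, haem oxygenases, quinone reductases, methionine sulphoxide reductases, and the transcription factor Nrf2 with its inhibitor Keap1. Of the 39 genes, 36 had at least 1 probe set assigned to a single gene symbol, out of 18193 genes with such a probe set in all, and they were covered by 75 of the 45101 probe sets of the array. The expression of Prdx1, Prdx5 and Prdx6 was not analysed here. The only such probe set of Glrx3, the gene of an iron-sulphur binding glutaredoxin, stayed under a signal intensity of 100 in all groups (54.7 and 46.9 in vitamin E-treated ApoE-/- aortas, 34.3 and 45.4 in untreated ApoE-/- aortas, 45.6 and 47.1 in B6 aortas) and was not tested. That left 64 probe sets of 35 genes, and each gene is described by the probe set with its highest mean signal over the 6 arrays unless another is named. The filter asked for a group mean of at least 100 in any group, and 34 of the 35 genes met it in every group.

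Whole aortas came from 3 groups of mice of 32 to 34 weeks, all on the C57BL/6J background and on chow with 7% fat and 0.15% cholesterol. The base chow had no added tocopherol acetate, the form of vitamin E given to the treated group. The vitamin E group lacked apolipoprotein E, the protein through which remnant lipoproteins are recognised and cleared from plasma, and received 2000 IU of vitamin E per kg of diet for 7 months from an age of 4 to 6 weeks. The untreated ApoE-/- group had the same genotype and overt atherosclerosis, and the B6 group was non-transgenic. Each group had 2 Affymetrix arrays, each hybridised with the pooled RNA of 3 aortas, so a difference was read against the spread between pools. The gene knockout affects every tissue of these mice, and a whole aorta mixes smooth muscle, endothelium, adventitia and, in ApoE-/- mice, plaque.

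The arrays were scaled alike, with mean signals from 305 to 319, and replicate arrays correlated with r = 0.984 to 0.992 over 17909 probe sets. The Apoe probe set read 40.5 and 45.3 in vitamin E-treated ApoE-/- aortas and 93.2 and 57.4 in ApoE-/- aortas, against 5209 and 5432 in B6 aortas, as labelled. All 10 contractile smooth muscle markers had group means of at least 100 in each group. The lowest value on any array was 0.039, so that no marker below was at 0 does not show that it was detected. Markers of tissues that lie beside the aorta or outside it were also measured at high signal and differed between the groups, and their sums are given below beside the redox genes with a like order of group means. The B6 arrays read higher for 18S RNA (200 and 184 in the vitamin E group, 88.0 and 100.7 in ApoE-/-, 580 and 595 in B6) and for the dap spike control added with the RNA (1192 and 1203 with vitamin E, 979 and 918 in ApoE-/- and 3203 and 3179 in B6). The ratio of 3′ to 5′ signal, which rises as RNA is degraded, was 1.15 and 1.24 with vitamin E, 1.03 and 1.06 in ApoE-/- and 1.35 and 1.34 in B6 for Gapdh. For beta-actin it was 1.64 on both vitamin E arrays, 1.78 and 1.88 in ApoE-/- and 2.01 and 2.06 in B6. The ApoE-/- and B6 arrays came from an earlier array study to which the vitamin E arrays were added, so treatment and array set cannot be told apart. The 18S RNA, dap and 3′ to 5′ values set the B6 arrays apart from both ApoE-/- groups. In the comparisons with B6, genotype and this technical difference cannot be told apart either.

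As background, superoxide dismutases turn superoxide into hydrogen peroxide, and catalase, glutathione peroxidases and peroxiredoxins reduce the peroxide. Many glutathione peroxidases draw electrons from glutathione and most peroxiredoxins from thioredoxin, and glutathione reductase and the thioredoxin reductases restore these carriers with NADPH. Under oxidative or electrophilic stress Nrf2 escapes its inhibitor Keap1 and raises the transcription of many of these genes through antioxidant response elements. Oxidation of lipoproteins in the arterial wall is a long-studied feature of atherosclerosis, and vitamin E is a lipid-soluble antioxidant that interrupts lipid peroxidation.

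Between vitamin E-treated and untreated ApoE-/- aortas, 10 of the 35 genes passed the threshold of an adjusted p under 0.05 (28.6%), where 15.8% of all 10646 genes tested did so. Higher with vitamin E were 3 genes, Gpx2, Glrx and Gss, where 8.18% of all genes were higher. Lower were 7 genes, Sod3, Msra, Msrb2, Txn2, Txnrd2, Prdx3 and Prdx4, where 7.65% of all genes were lower. Counted by probe set, 14 of the 64 redox probe sets passed (21.9%), beside 15.5% of all probe sets. The median log2 fold change of the 35 genes was -0.11, beside 0.00 for all genes tested. The count depended on the untreated arrays: it was lower without ApoE-/- array 1 or 2, as was the count over all probe sets. The redox count also depended on the filter on low signals, since only Sod3 and Prdx3 passed when all probe sets were tested. In that setting 949 of 45037 probe sets passed.

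Between untreated ApoE-/- and B6 aortas, 20 of the 35 genes passed (57.1%), where 41.9% of all genes did. In ApoE-/- aortas 9 were higher (Sod3, Keap1, Gsr, Txn2, Msra, Txnrd2, Prdx4, Hmox2 and Txnrd1) and 11 were lower (Gpx8, Glrx, Gclc, Gclm, Gss, Gpx3, Gpx2, Txnrd3, Sod2, Glrx5 and, by its brighter probe set but not by its other one, Txnip), where 21.2% of all genes were higher and 20.8% lower. By probe set 32 of the 64 passed (50%), beside 40.8% of all. The median log2 fold change was -0.14 over the 35 genes and 0.02 over all genes tested. The count was lower without any single ApoE-/- or B6 array, as was the count over all probe sets. Without the filter on low signals it was 9, where 4494 of 45037 probe sets passed. When each array was centred on its median instead, which moved the fold changes of this comparison by 0.07 on the log2 scale, 7 genes were higher and 14 lower. After centring, 43.2% of all probe sets called were on the higher side, instead of 53.1%.

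Set against B6 aortas, the vitamin E group differed in 13 of the 35 genes (37.1%), where 42.8% of all genes did, so the share of redox genes was not above that of all genes. Sod3, Keap1 and Gpx2 were higher in the vitamin E group (3 genes, where 21.1% of all genes were higher), and 10 genes were lower, Gpx8, Gclm, Gpx3, Gclc, Txnrd3, Sod2, Cat, Prdx3, Nfe2l2 and Glrx5 (where 21.7% of all genes were lower). By probe set 23 of the 64 passed (35.9%), beside 41.1% of all. The count was lower without either B6 array, as was the count over all probe sets. Without the filter it was 8, where 4464 of 45037 probe sets passed. Median centring moved these fold changes by 0.15 on the log2 scale and gave 2 genes higher and 17 lower. After it, 31.4% of all probe sets called were on the higher side, instead of 53.3%. The 3 comparisons share their arrays 2 by 2, so they are not independent of each other and their values are only set side by side below.

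**Figure D1:**
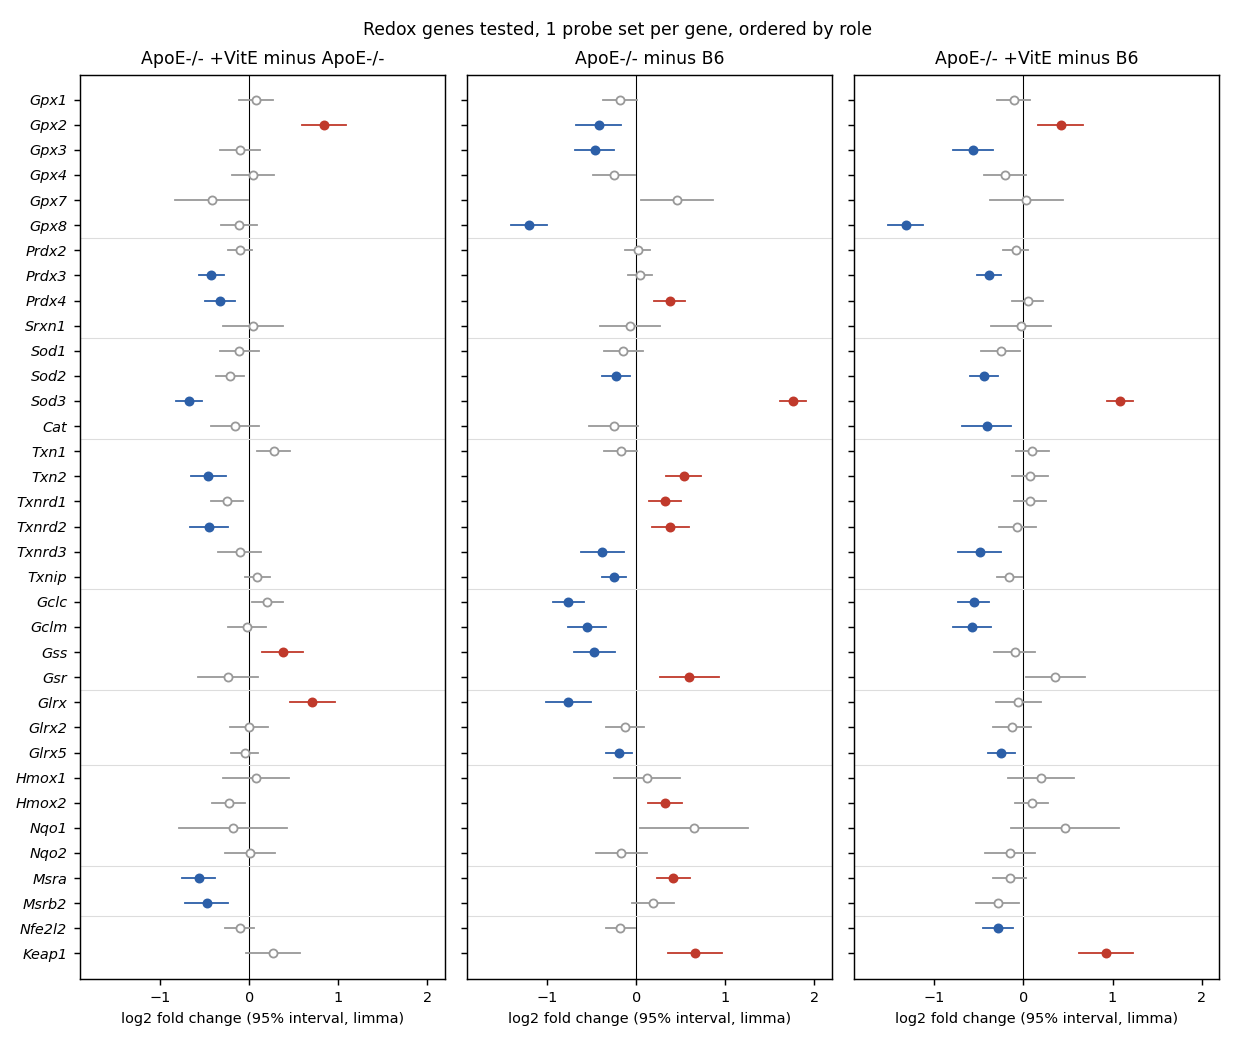
Log2 fold change (x axis, with 95% interval from limma) of the 35 genes tested, in order of role from top to bottom, for vitamin E-treated ApoE-/- minus ApoE-/-, ApoE-/- minus B6, and vitamin E-treated ApoE-/- minus B6 aortas. Filled red points are genes higher and filled blue points genes lower at an adjusted p under 0.05, open grey points did not pass; Sod3 lies farthest to the right in the ApoE-/- minus B6 panel at 1.76 and Gpx8 farthest to the left at -1.21.

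Among the enzymes that act on superoxide, Sod3 differed most. Sod3 encodes the extracellular superoxide dismutase, which binds to heparan sulphate in the vessel wall. Its signal was 987 and 1027 in vitamin E-treated ApoE-/- aortas, 1631 and 1595 in ApoE-/- aortas, and 468 and 482 in B6 aortas, and no array of a group overlapped with another group. The group means were 1007 ± 27.7, 1613 ± 25.1 and 475 ± 9.85 in that order (SD, n = 2 arrays each). Sod3 was thus 3.40-fold higher in ApoE-/- than in B6 (log2 fold change 1.76, SE 0.06, adjusted p = 2.94e-06 by limma with Benjamini-Hochberg adjustment). It was 1.60-fold lower with vitamin E than without it in ApoE-/- mice (log2 fold change -0.68, SE 0.06, adjusted p = 0.000768), and still 2.12-fold higher with vitamin E than in B6 aortas (log2 fold change 1.08, SE 0.06, adjusted p = 3.03e-05). Another Sod3 probe set, at a lower signal, showed the same order with 267 and 312 in the vitamin E group, 515 and 543 in ApoE-/- and 123 and 112 in B6, and it passed in all 3 comparisons (log2 fold changes -0.87, 2.17 and 1.3). Sod3 passed whichever single array was left out.

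The summed signal of the 10 macrophage markers followed the same order as Sod3, at 14230 and 14549 in the vitamin E group, 16014 and 16112 in ApoE-/- and 10351 and 10356 in B6 aortas. None of these markers was listed at 0, 9 of the 10 reached a group mean of 100 in each group, and 7 of the 9 tested were higher in ApoE-/- than in B6, 1 was lower with vitamin E than in untreated ApoE-/-. In a mixed tissue fewer cells of a type and less RNA per cell cannot be told apart. The group means of Prdx4, Txn2, Txnrd1, Gsr and Hmox2 had this order too. So did the cardiac muscle sums given below, and all 8 of those markers were lower with vitamin E than in untreated ApoE-/-. The part of macrophages or of cardiac tissue in the signals of Sod3 and these genes was not tested.

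The intracellular dismutases moved less and their probe sets did not all give the same call. Sod2 encodes the manganese dismutase of the mitochondrial matrix. Its signal was 4433 and 4757 in the vitamin E group, 5279 and 5364 in ApoE-/- and 6231 and 6263 in B6 aortas, without overlap. It was 1.17-fold lower in ApoE-/- than in B6 (adjusted p = 0.0284) and 1.36-fold lower in the vitamin E group than in B6 (adjusted p = 0.00196). The ApoE-/- call was lost whichever of the 4 arrays compared was left out (adjusted p = 0.171 without ApoE-/- array 1, 0.14 without ApoE-/- array 2, 0.143 without B6 array 1 and 0.151 without B6 array 2). Against untreated ApoE-/- the vitamin E group gave a log2 fold change of -0.21 (adjusted p = 0.0733). This change was -0.16 without vitamin E array 1 and -0.26 without vitamin E array 2. Another Sod2 probe set was lower with vitamin E than in ApoE-/- (610 and 605 against 940 and 892, log2 fold change -0.59, adjusted p = 0.0035). It was also lower with vitamin E than in B6 (-0.40, adjusted p = 0.0062) and did not pass between ApoE-/- and B6 (0.20, adjusted p = 0.0798). A further probe set, nearly as bright as the first, read 4072 and 4703 with vitamin E, 5150 and 5370 in ApoE-/- and 4784 and 4783 in B6. That probe set passed in no comparison, with a log2 fold change of 0.14 between ApoE-/- and B6. The lower Sod2 call in ApoE-/- thus rested on the brightest probe set alone.

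Lung epithelium markers had the same order of group means as the brightest Sod2 probe set. The 7 lung markers with a probe set summed to 10548 and 10456 with vitamin E, 13579 and 13951 in ApoE-/- and 16660 and 17259 in B6 aortas. Of these 7, 6 were lower with vitamin E than in ApoE-/-, 4 were lower in ApoE-/- than in B6 and all 7 were lower with vitamin E than in B6. A mean of 100 was reached by 3 of them with vitamin E, 7 in ApoE-/- and 7 in B6, and none was at 0. Among the redox genes called in any comparison, Gpx3, Gpx8, Cat, Txnrd3, Gclm, Glrx5 and Nfe2l2 had this order of means as well. Contractile smooth muscle sums had this order too, at 18224 and 18998 with vitamin E, 20331 and 21028 in ApoE-/- and 21486 and 22194 in B6. Of the 10 smooth muscle markers, 5 were lower with vitamin E than in B6 and none was higher. White and brown adipocyte sums had this order of means as well, but their vitamin E and ApoE-/- arrays overlapped. The part of lung, smooth muscle or fat in these signals was not tested.

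Sod1, the copper-zinc dismutase of the cytosol, did not pass in any comparison by its brightest probe set, with 4120 and 3435 in the vitamin E group, 4189 and 3937 in ApoE-/- and 4432 and 4545 in B6. With vitamin E this probe set gave log2 fold changes of -0.11 against ApoE-/- and -0.25 against B6. Without vitamin E array 1 these were -0.24 and -0.39. Between ApoE-/- and B6 it passed in a fit of only those arrays (log2 fold change -0.14, adjusted p = 0.0296). A nearly as bright probe set of Sod1 read 3161 and 3608 with vitamin E, against 4323 and 4230 in ApoE-/- and 4410 and 4365 in B6 aortas. It was lower with vitamin E in both comparisons (log2 fold changes -0.34 and -0.38, adjusted p = 0.0268 and 0.0073). At signals of at most 211, a dim Sod1 probe set was lower in ApoE-/- than in B6 (log2 fold change -0.66). Another gave -1.10 there and -0.74 with vitamin E against B6, but it met the signal filter only through B6, the group in which it was highest, so its calls are no further support.

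Catalase, the peroxisomal enzyme that splits hydrogen peroxide, read 3815 and 2913 in the vitamin E group, 3762 and 3677 in ApoE-/- and 4493 and 4388 in B6 aortas. The vitamin E arrays differed from each other by more than the ApoE-/- arrays did. Cat was 1.33-fold lower with vitamin E than in B6 (adjusted p = 0.026), a call that was lost without ApoE-/- array 1 (adjusted p = 0.0501), B6 array 1 (0.133) or B6 array 2 (0.109) and with quantile normalization (0.055). Another Cat probe set gave a log2 fold change of -0.53 there (adjusted p = 0.0092). For the brightest Cat probe set the log2 fold change against ApoE-/- was -0.16 with all arrays and -0.35 without vitamin E array 1. Between ApoE-/- and B6 this brightest probe set gave -0.26 and did not pass (adjusted p = 0.119). It passed there in a fit of only the ApoE-/- and B6 arrays (adjusted p = 0.00164).

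**Figure D2:**
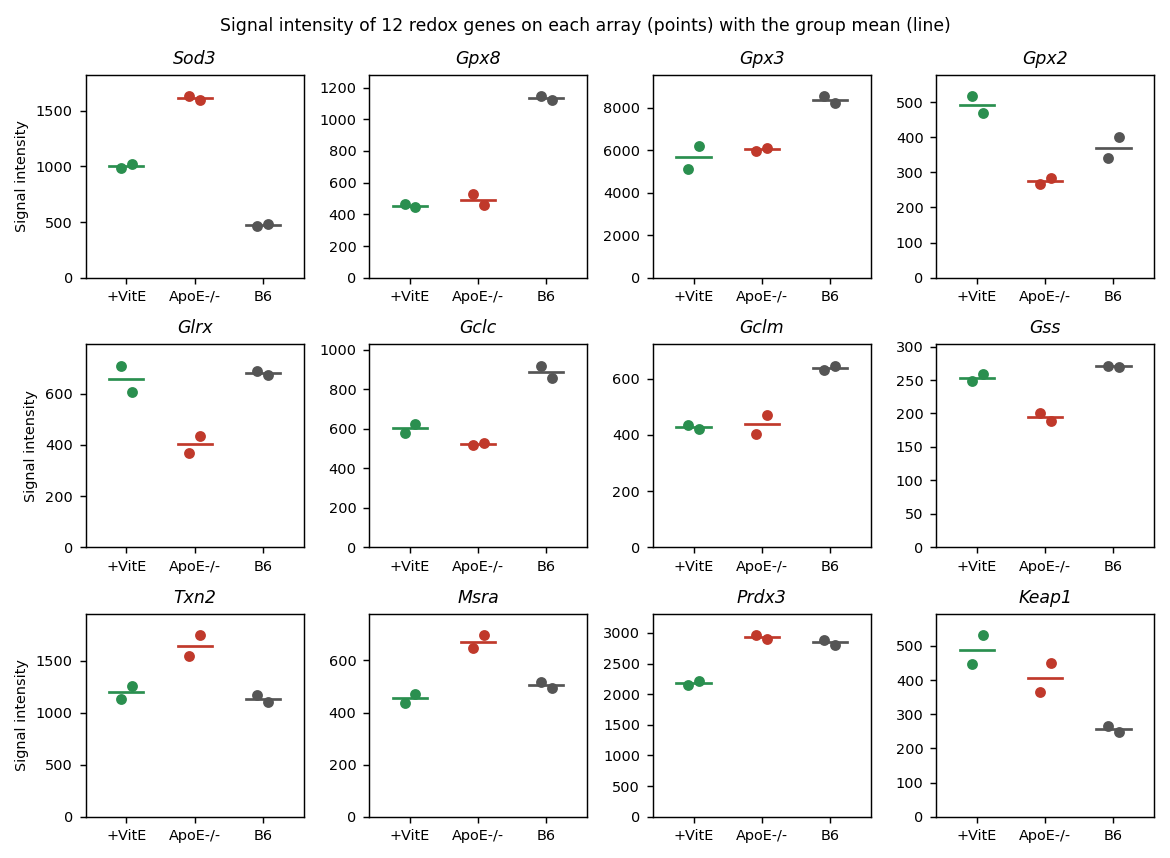
Signal intensity (y axis, linear, starting at 0) of 12 of the genes on each of the 6 arrays, with vitamin E-treated ApoE-/- (+VitE, green), ApoE-/- (red) and B6 (grey) aortas from left to right; points are arrays and lines group means. Sod3 lies at 987 and 1027 with vitamin E, 1631 and 1595 in ApoE-/- and 468 and 482 in B6, Gpx8 lies at 1145 and 1122 in B6 above all 4 other arrays, and Gpx2 and Glrx are lowest in ApoE-/- aortas.

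Of the 6 glutathione peroxidases, Gpx8 and Gpx3 were low in both ApoE-/- groups and Gpx2 was high with vitamin E. Gpx8 is a membrane protein of the endoplasmic reticulum. It read 463 and 444 in the vitamin E group and 528 and 456 in ApoE-/- aortas, against 1145 and 1122 in B6 aortas, and the 4 ApoE-/- arrays overlapped with each other but not with B6. The gene was 2.31-fold lower in ApoE-/- than in B6 (log2 fold change -1.21, SE 0.09, adjusted p = 6.55e-05) and 2.50-fold lower in the vitamin E group than in B6 (log2 fold change -1.32, SE 0.09, adjusted p = 4.88e-05). Between the vitamin E and untreated ApoE-/- groups the difference was -0.12 on the log2 scale, with a 95% interval from -0.32 to 0.08. Both Gpx8 calls were kept whichever array was left out.

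Gpx3 encodes the secreted glutathione peroxidase of plasma and extracellular fluid. Its signal was 5135 and 6191 with vitamin E and 5987 and 6113 in ApoE-/-, against 8540 and 8205 in B6 aortas. It was 1.38-fold lower in ApoE-/- than in B6 (adjusted p = 0.0071), which was lost without ApoE-/- array 1 (adjusted p = 0.0576) or B6 array 1 (0.069), and 1.48-fold lower in the vitamin E group than in B6 (adjusted p = 0.0032), which was kept without any single array. Between the ApoE-/- groups it did not pass with all arrays, and its log2 fold change ran from -0.24 to 0.03 over the alternative fits.

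Gpx2 encodes a glutathione peroxidase known from the epithelium of the digestive tract. It read 516 and 469 in vitamin E-treated ApoE-/- aortas, 267 and 284 in ApoE-/- aortas and 340 and 400 in B6 aortas, with no overlap between groups. It was 1.79-fold higher with vitamin E than in ApoE-/- (log2 fold change 0.84, SE 0.11, adjusted p = 0.0031), the greatest difference in that comparison among the brightest probe sets of the 35 genes, and this call was kept whichever array was left out. Gpx2 was also 1.34-fold lower in ApoE-/- than in B6 (adjusted p = 0.0177) and 1.34-fold higher with vitamin E than in B6 (adjusted p = 0.0181). The ApoE-/- call was lost without ApoE-/- array 1 (adjusted p = 0.0961), ApoE-/- array 2 (0.0541) or B6 array 2 (0.12), and the vitamin E call against B6 without vitamin E array 1 (0.0651) or B6 array 1 (0.12) and with median centring (0.078).

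Squamous epithelium of the oesophagus, which runs beside the aorta, gave marker sums of 26758 and 30140 with vitamin E, 14333 and 14396 in ApoE-/- and 25977 and 26417 in B6 aortas. None of its 9 markers with a probe set was at 0, 7 reached a mean of 100 in each group, all 7 tested were higher with vitamin E than in ApoE-/-, and 5 were lower in ApoE-/- than in B6. The 10 skeletal muscle markers gave 58175 and 67753 with vitamin E, 30390 and 30355 in ApoE-/- and 53661 and 53101 in B6, and all 10 were higher with vitamin E and all 10 lower in ApoE-/- than in B6. Gpx2, and with it Glrx and Gss below, was lowest on the 2 ApoE-/- arrays on which these sums were lowest. The part of these tissues in their signals was not tested.

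The remaining glutathione peroxidases did not pass. Gpx1, the abundant cytosolic enzyme, read 4902 and 5629 with vitamin E, 5056 and 4920 in ApoE-/- and 5620 and 5720 in B6. Gpx4, which reduces lipid hydroperoxides within membranes, read 7406 and 9103 with vitamin E, 7923 and 7994 in ApoE-/- and 9453 and 9482 in B6. For Gpx4 the 95% intervals ran from -0.19 to 0.28 between the vitamin E and untreated groups and from -0.49 to -0.01 between ApoE-/- and B6, both on the log2 scale. A nearly as bright Gpx4 probe set gave a log2 fold change of -0.08 between ApoE-/- and B6 (95% interval -0.32 to 0.16). The Gpx4 values that follow are those of the brightest probe set. Both genes were sensitive to the spread between the vitamin E arrays. Between ApoE-/- and B6 they passed in a fit of only those arrays (adjusted p = 0.00502 for Gpx1 and 0.000782 for Gpx4). With vitamin E against untreated ApoE-/-, the log2 fold change of Gpx1 ran from -0.03 to 0.17 over the alternative fits. That of Gpx4 ran from -0.10 to 0.19, so for both genes the sign depended on the fit. Gpx7, an enzyme of the endoplasmic reticulum, had a low signal of 146 and 185 with vitamin E, 253 and 192 in ApoE-/- and 157 and 164 in B6. Its difference between ApoE-/- and B6 (log2 fold change 0.46, adjusted p = 0.0718) passed in a fit of only those arrays (0.0445). It ran from 0.26 to 0.65 over the alternative fits.

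Peroxiredoxins are thiol peroxidases, most of which are reduced by thioredoxin. Prdx3, the mitochondrial member, read 2156 and 2208 in vitamin E-treated ApoE-/- aortas, against 2960 and 2896 in ApoE-/- and 2886 and 2808 in B6 aortas. The vitamin E arrays lay below all 4 others, and the ApoE-/- and B6 groups differed by 0.04 on the log2 scale (95% interval -0.10 to 0.18). Prdx3 was 1.34-fold lower with vitamin E than in ApoE-/- (log2 fold change -0.42, SE 0.06, adjusted p = 0.0044), which was lost without ApoE-/- array 1 (adjusted p = 0.0553), and 1.3-fold lower than in B6 (adjusted p = 0.0021).

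Prdx4, the peroxiredoxin of the endoplasmic reticulum, was high in untreated ApoE-/- aortas, with 671 and 706, against 549 and 513 in B6. With vitamin E it read 540 and 558. It was 1.25-fold lower with vitamin E than in ApoE-/- (adjusted p = 0.0266) and 1.3-fold higher in ApoE-/- than in B6 (adjusted p = 0.0061). The first of these calls was lost without ApoE-/- array 1 (adjusted p = 0.0981), ApoE-/- array 2 (0.168), B6 array 1 (0.0543) or B6 array 2 (0.0535), and the other without ApoE-/- array 2 (0.0529) or B6 array 2 (0.0528). A dimmer Prdx4 probe set met the signal filter only through the ApoE-/- group, in which it was highest, so its log2 fold change of 0.80 against B6 (adjusted p = 0.0146) is no further support. Another did not pass (0.62, adjusted p = 0.0728), and neither passed between the vitamin E and untreated groups.

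Prdx2, a cytosolic peroxiredoxin abundant in red cells, read 3044 and 3013 with vitamin E, 3307 and 3200 in ApoE-/- and 3271 and 3170 in B6, and did not pass. Srxn1, which reactivates overoxidised peroxiredoxins, did not pass by its brightest probe set (267 and 310 with vitamin E, 318 and 246 in ApoE-/- and 309 and 280 in B6). Another Srxn1 probe set read 126 and 155 with vitamin E, 193 and 175 in ApoE-/- and 119 and 104 in B6. That probe set was higher in ApoE-/- than in B6 (log2 fold change 0.73, adjusted p = 0.0087).

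In the thioredoxin system the mitochondrial pair of genes moved together. Txn2, the mitochondrial thioredoxin, read 1133 and 1262 in vitamin E-treated ApoE-/- aortas, 1545 and 1745 in ApoE-/- and 1168 and 1105 in B6. Txnrd2, the reductase of mitochondrial thioredoxin, read 401 and 430 with vitamin E, 556 and 580 in ApoE-/- and 464 and 408 in B6. For both genes the ApoE-/- arrays lay above all 4 others and the vitamin E and B6 arrays overlapped. Txn2 was 1.37-fold lower with vitamin E than in ApoE-/- (log2 fold change -0.46, SE 0.09, adjusted p = 0.0137) and 1.45-fold higher in ApoE-/- than in B6 (log2 fold change 0.53, SE 0.09, adjusted p = 0.0026). Txnrd2 was 1.37-fold lower with vitamin E (adjusted p = 0.0177) and 1.3-fold higher in ApoE-/- than in B6 (adjusted p = 0.0129).

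The vitamin E call of Txn2 was lost without ApoE-/- array 2 (adjusted p = 0.105), and that of Txnrd2 without ApoE-/- array 1 (0.0818) or 2 (0.118). The call of Txnrd2 between ApoE-/- and B6 was lost without ApoE-/- array 2 (0.0827) or B6 array 2 (0.0908), and that of Txn2 was kept. Of the other Txn2 probe sets, 1 was higher in ApoE-/- than in B6 (log2 fold change 0.29, adjusted p = 0.0097) and 1 was not (0.07, adjusted p = 0.501), and neither passed with vitamin E. The other 3 Txnrd2 probe sets, all with array signals of at most 183, did not pass in either comparison.

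Cardiac muscle markers were likewise highest on the ApoE-/- arrays. The 8 markers summed to 27828 and 30914 with vitamin E, 51717 and 52185 in ApoE-/- and 27661 and 27304 in B6 aortas, and all 8 were lower with vitamin E than in ApoE-/- and higher in ApoE-/- than in B6. Each reached a mean of 100 in each group and none was at 0. Msra and Prdx4 were highest on these arrays too, as were Sod3, Txnrd1, Gsr and Hmox2. The part of cardiac tissue in the signals of these genes, Txn2 and Txnrd2 was not tested.

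Txn1, the cytosolic thioredoxin, read 4779 and 5485 with vitamin E, 4247 and 4219 in ApoE-/- and 4785 and 4786 in B6. Its difference between the vitamin E and untreated groups (log2 fold change 0.27, adjusted p = 0.0563) was 0.37 without vitamin E array 1 and 0.175 without array 2. Between ApoE-/- and B6 it passed in a fit of only those arrays (log2 fold change -0.18, adjusted p = 0.00506). Between the vitamin E group and B6 its log2 fold change ran from -0.06 to 0.20 over the alternative fits. A dim Txn1 probe set read 74.3 and 164 with vitamin E, against 40.9 and 30.6 in B6, with a log2 fold change of 1.64 (SE 0.55, adjusted p = 0.0476), but its B6 mean lay under the filter limit.

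Txnrd1, the cytosolic thioredoxin reductase, was 1.25-fold higher in ApoE-/- (663 and 630) than in B6 (542 and 493), at an adjusted p of 0.0146. This was lost without ApoE-/- array 1 (adjusted p = 0.0956), ApoE-/- array 2 (0.0517) or B6 array 2 (0.101) and with median centring (0.0708), and the vitamin E group read 535 and 554. Txnrd3, a thioredoxin and glutathione reductase known from testis, read 248 and 241 with vitamin E and 282 and 244 in ApoE-/-, against 344 and 341 in B6. It was 1.3-fold lower in ApoE-/- than in B6 (adjusted p = 0.022) and 1.4-fold lower with vitamin E than in B6 (adjusted p = 0.0084). The ApoE-/- call was lost without ApoE-/- array 2 (adjusted p = 0.138), B6 array 1 (0.108) or B6 array 2 (0.0997), and the vitamin E call without B6 array 1 (0.0578) or 2 (0.0541). Another Txnrd3 probe set passed in neither comparison.

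Txnip encodes an inhibitor of thioredoxin, and its probe sets went opposite ways. The brighter probe set read 3616 and 3736 with vitamin E, 3456 and 3442 in ApoE-/- and 4102 and 4096 in B6, which made it 1.19-fold lower in ApoE-/- than in B6 (log2 fold change -0.25, adjusted p = 0.0135). This call was lost without ApoE-/- array 1 (adjusted p = 0.0948), ApoE-/- array 2 (0.103), B6 array 1 (0.0931) or B6 array 2 (0.0897). The dimmer probe set read 983 and 1059 with vitamin E, 976 and 1057 in ApoE-/- and 581 and 597 in B6. It was higher in ApoE-/- than in B6 (log2 fold change 0.79, SE 0.07, adjusted p = 0.000215) and higher with vitamin E than in B6 (0.79, SE 0.07, adjusted p = 0.000237). With vitamin E against B6 the brighter Txnip probe set gave a log2 fold change of -0.16 (adjusted p = 0.0695). It passed as lower there with median centring (0.00903). The direction of Txnip thus depended on the probe set.

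**Figure D3:**
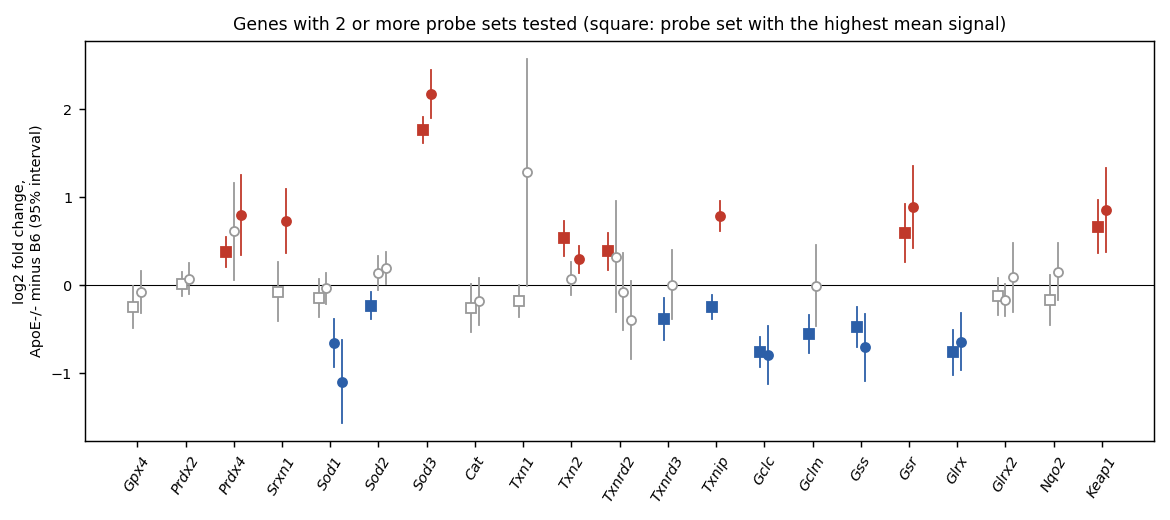
Log2 fold change of ApoE-/- minus B6 aortas (y axis, with 95% interval) for every probe set tested of the 21 genes with more than 1 tested probe set; squares mark the probe set with the highest mean signal, red is higher, blue lower and open grey did not pass. All tested probe sets had the same call for 12 of the 21 genes, Txnip alone had opposite calls, and for the other 8 genes called and uncalled probe sets stood side by side.

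Transcripts of both steps of glutathione synthesis were lower in ApoE-/- than in B6 aortas. Glutamate-cysteine ligase, the rate-limiting enzyme, consists of a catalytic subunit encoded by Gclc and a modifier subunit encoded by Gclm. Gclc read 580 and 625 with vitamin E and 518 and 528 in ApoE-/-, against 918 and 856 in B6 aortas. Gclm read 435 and 422 with vitamin E and 403 and 472 in ApoE-/-, against 630 and 646 in B6 aortas. All 4 arrays of ApoE-/- mice lay below both B6 arrays for each subunit.

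Gclc was 1.70-fold lower in ApoE-/- than in B6 (log2 fold change -0.76, SE 0.07, adjusted p = 0.000265) and 1.47-fold lower with vitamin E than in B6 (log2 fold change -0.56, SE 0.07, adjusted p = 0.0012). Gclm was 1.46-fold lower in ApoE-/- than in B6 (log2 fold change -0.55, SE 0.09, adjusted p = 0.003) and 1.49-fold lower with vitamin E than in B6 (log2 fold change -0.57, SE 0.09, adjusted p = 0.0026). These 4 calls were kept whichever array was left out. Between the vitamin E and untreated groups neither passed, with 95% intervals of 0.03 to 0.38 for Gclc and -0.24 to 0.19 for Gclm on the log2 scale. Another Gclc probe set gave log2 fold changes of -0.80 in ApoE-/- and -0.79 with vitamin E against B6, and a dim Gclm probe set did not pass (-0.01 and -0.53).

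Gss, the glutathione synthetase that adds glycine, read 248 and 259 with vitamin E, 201 and 189 in ApoE-/- and 271 and 270 in B6 aortas, so that the ApoE-/- arrays lay below the other 4. It was 1.3-fold higher with vitamin E than in ApoE-/- (adjusted p = 0.0426). This call was near the threshold and was lost whichever of the 6 arrays was left out (adjusted p = 0.0544 without vitamin E array 1, 0.0955 without vitamin E array 2, 0.122 without ApoE-/- array 1, 0.204 without ApoE-/- array 2, 0.0892 without B6 array 1 and 0.0891 without B6 array 2) and with median centring (0.119). Gss was 1.39-fold lower in ApoE-/- than in B6 (adjusted p = 0.0078), which was lost without ApoE-/- array 2 (adjusted p = 0.0544), B6 array 1 (0.0534) or B6 array 2 (0.0513). Another Gss probe set was lower in ApoE-/- than in B6 (log2 fold change -0.71, adjusted p = 0.0121) and did not pass between the vitamin E and untreated groups (0.41, adjusted p = 0.134).

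Liver, where glutathione synthesis is high, was among the tissues with unequal marker sums. The 12 liver markers summed to 2777 and 2855 with vitamin E and 1439 and 1449 in ApoE-/-, against 26529 and 26747 in B6 aortas, and all 12 were lower in each ApoE-/- group than in B6. Of these markers 7 reached a mean of 100 with vitamin E, 5 in ApoE-/- and 12 in B6, and none was at 0. The 5 nerve and Schwann cell markers with a probe set summed to 3746 and 3919 with vitamin E and 3068 and 3050 in ApoE-/-, against 7696 and 7436 in B6, the order of the Gclc, Gss and Glrx means. All 5 reached a mean of 100 in each group, and all 5 were lower in each ApoE-/- group than in B6. The part of liver and nerve tissue in the signals of Gclc, Gclm, Gss, Glrx, Gpx3 and Gpx8, which all had their highest mean in B6, was not tested.

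Gsr, the reductase that returns oxidised glutathione to its reduced form, went the other way. It read 258 and 267 with vitamin E, 285 and 336 in ApoE-/- and 182 and 231 in B6 aortas, and was 1.51-fold higher in ApoE-/- than in B6 (log2 fold change 0.60, SE 0.14, adjusted p = 0.0137). That call was lost without ApoE-/- array 2 (adjusted p = 0.0941) or B6 array 1 (0.0898). A dimmer Gsr probe set was higher in ApoE-/- (log2 fold change 0.89, adjusted p = 0.0105) and with vitamin E (0.63, adjusted p = 0.0389) than in B6, but its B6 mean lay just under the filter limit.

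Glutaredoxins reduce mixed disulphides of proteins with glutathione. Glrx, the cytosolic glutaredoxin, read 709 and 605 in vitamin E-treated ApoE-/- aortas, 369 and 436 in ApoE-/- and 690 and 674 in B6 aortas. The ApoE-/- arrays lay below the other 4, and the vitamin E and B6 arrays overlapped. Glrx was 1.63-fold higher with vitamin E than in ApoE-/- (log2 fold change 0.71, SE 0.11, adjusted p = 0.0066) and 1.70-fold lower in ApoE-/- than in B6 (log2 fold change -0.77, SE 0.11, adjusted p = 0.0014). Both calls were kept whichever array was left out. Another Glrx probe set gave 0.66 (adjusted p = 0.0207) and -0.64 (adjusted p = 0.0093) for these log2 fold changes.

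Glrx5, a mitochondrial glutaredoxin of iron-sulphur cluster assembly, read 2765 and 2980 with vitamin E and 2987 and 2965 in ApoE-/-, against 3389 and 3428 in B6. It was 1.15-fold lower in ApoE-/- than in B6 (adjusted p = 0.0434) and 1.19-fold lower with vitamin E than in B6 (adjusted p = 0.0182). The ApoE-/- call was lost without ApoE-/- array 1 (adjusted p = 0.173), ApoE-/- array 2 (0.196), B6 array 1 (0.161) or B6 array 2 (0.187), and the vitamin E call without B6 array 1 (0.0956) or 2 (0.11). Glrx2, the other mitochondrial glutaredoxin, read 605 and 517 with vitamin E, 577 and 541 in ApoE-/- and 603 and 618 in B6, and none of its 3 probe sets passed.

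The methionine sulphoxide reductases, which repair oxidised methionine in proteins, were lower with vitamin E. Msra, which acts on the S form, read 439 and 470 with vitamin E, 648 and 696 in ApoE-/- and 517 and 493 in B6 aortas, without overlap between groups. It was 1.48-fold lower with vitamin E than in ApoE-/- (log2 fold change -0.57, SE 0.08, adjusted p = 0.0046) and 1.33-fold higher in ApoE-/- than in B6 (log2 fold change 0.41, SE 0.08, adjusted p = 0.0054), and both calls were kept whichever array was left out. Msrb2, the mitochondrial enzyme that acts on the R form, read 246 and 245 with vitamin E, 346 and 338 in ApoE-/- and 324 and 278 in B6. It was 1.39-fold lower with vitamin E than in ApoE-/- (log2 fold change -0.48, SE 0.10, adjusted p = 0.0227), a call that was lost without ApoE-/- array 1 (adjusted p = 0.122) or 2 (0.109).

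Haem oxygenases break down haem, and quinone reductases reduce quinones without leaving a radical. Hmox1, the inducible haem oxygenase, stayed low, with 139 and 119 in the vitamin E group, 113 and 130 in ApoE-/- and 119 and 106 in B6 aortas. The groups overlapped, and the 95% intervals ran from -0.29 to 0.45 between the vitamin E and untreated groups and from -0.25 to 0.49 between ApoE-/- and B6 on the log2 scale. Hmox2, the constitutive form, was 1.25-fold higher in ApoE-/- (1129 and 987) than in B6 (855 and 833), at an adjusted p of 0.0161. This was lost without ApoE-/- array 1 (adjusted p = 0.114), B6 array 1 (0.0726) or B6 array 2 (0.0945) and with median centring (0.0707), and the vitamin E group read 876 and 922.

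Nqo1, a quinone reductase and a classical Nrf2 target, read 105 and 132 with vitamin E, 104 and 173 in ApoE-/- and 77.2 and 94.1 in B6. It was the only gene tested that did not reach a mean of 100 in every group. Its difference between ApoE-/- and B6 (log2 fold change 0.65, SE 0.26, adjusted p = 0.0826) ran from 0.28 to 1.02 over the alternative fits. Nqo2 read 189 and 221 with vitamin E, 197 and 208 in ApoE-/- and 220 and 235 in B6 and did not pass in any comparison.

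Nfe2l2, which encodes Nrf2, read 878 and 810 with vitamin E, 908 and 908 in ApoE-/- and 1061 and 994 in B6 aortas. It was 1.22-fold lower with vitamin E than in B6 (adjusted p = 0.0159), a call that was lost without B6 array 1 (adjusted p = 0.111). Between ApoE-/- and B6 it gave an adjusted p of 0.0812, which became 0.0359 in a fit of only the ApoE-/- and B6 arrays. Keap1, the adaptor that delivers Nrf2 for degradation, read 446 and 531 with vitamin E, 366 and 449 in ApoE-/- and 265 and 247 in B6. The B6 arrays lay below the other 4. Keap1 was 1.58-fold higher in ApoE-/- than in B6 (log2 fold change 0.66, SE 0.13, adjusted p = 0.0059) and 1.90-fold higher with vitamin E than in B6 (log2 fold change 0.93, SE 0.13, adjusted p = 0.0014). The ApoE-/- call was lost without B6 array 2 (adjusted p = 0.0503). Another Keap1 probe set gave 0.85 (adjusted p = 0.0136) and 0.83 (adjusted p = 0.0154), with a B6 mean under the filter limit.

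Markers of thymocytes and T cells were in the order of the Keap1 means. The 7 with a probe set summed to 8535 and 8380 with vitamin E and 4664 and 5813 in ApoE-/-, against 1076 and 1045 in B6 aortas, and all 6 tested were higher in each ApoE-/- group than in B6. A mean of 100 was reached by 6 with vitamin E, 6 in ApoE-/- and 3 in B6, and none was at 0. The part of these cells in the Keap1 signal was not tested.

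The core letters of the antioxidant response element, TGACNNNGC, were searched on both strands in RefSeq promoters of the GRCm38.p6 build, from 250 bases before to 50 bases after each start. Of the 33 genes of the list with a promoter there, 7 held the core (21.2%), beside 14% of all 27025 genes with a promoter. A gene counted if any of its promoters held the core. By promoter the share was 15.6% of the 45 of these genes, beside 12.4% of all 32851. The 7 genes were Gclm, Msrb2, Nfe2l2, Prdx1, Sod1, Srxn1 and Txnrd1. Stretches of 4 of these promoters are printed on the strand of the gene to show where the core lies, in capitals, and for Gclm, Sod1 and Txnrd1 the match is on the opposite strand and reads GCNNNGTCA. Coordinates are chr3:122245383-122245471 for Gclm and chr10:82859074-82859162 for Txnrd1 on the plus strand, chr16:90220666-90220754 for Sod1 on the plus strand, and chr2:75704855-75704913 for Nfe2l2 on the minus strand.
Gclm: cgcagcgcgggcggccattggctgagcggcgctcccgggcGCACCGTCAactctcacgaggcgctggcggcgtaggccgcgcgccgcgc
Txnrd1: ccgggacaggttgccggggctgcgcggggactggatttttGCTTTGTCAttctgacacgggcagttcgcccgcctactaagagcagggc
Sod1: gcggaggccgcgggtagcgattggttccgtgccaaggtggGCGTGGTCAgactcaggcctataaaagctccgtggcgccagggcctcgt
Nfe2l2: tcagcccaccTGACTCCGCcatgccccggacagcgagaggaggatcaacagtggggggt

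Genes that held the core did not share a direction. Gclm was lower and Txnrd1 higher in ApoE-/- than in B6 aortas, and Msrb2 was lower with vitamin E than in untreated ApoE-/- aortas. The brightest probe sets of Sod1 and Srxn1 passed in no comparison. A match is only a run of letters and does not show that a factor binds there.

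Genes that work with these enzymes were read from lists of 86 further genes, of which 77 were tested. With vitamin E 3 were higher and 13 lower than in untreated ApoE-/- aortas (median log2 fold change -0.12), which is 20.8% of them beside 15.8% of all genes. In ApoE-/- 16 were higher and 21 lower than in B6 (median -0.03), or 48.1% beside 41.9% of all genes. With vitamin E 9 were higher and 24 lower than in B6 (median -0.09), or 42.9% beside 42.8% of all genes, so in this comparison the share was that of all genes.

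The genes of NADPH supply, the source of electrons for glutathione and thioredoxin reductases, held 4 of the 13 that were lower with vitamin E, out of 9 tested, and none was higher, where 7.65% of all genes were lower and 8.18% higher. Me1, the cytosolic malic enzyme, read 4179 and 4275 with vitamin E, 7060 and 7098 in ApoE-/- and 5779 and 5809 in B6, and was 1.68-fold lower with vitamin E than in ApoE-/- (log2 fold change -0.74, adjusted p = 0.000482). Pgd, a dehydrogenase of the pentose phosphate pathway, read 5103 and 5551 with vitamin E, 7290 and 7535 in ApoE-/- and 6569 and 6645 in B6 and was 1.39-fold lower (adjusted p = 0.0059). Nnt, the gene of a transhydrogenase that makes NADPH in mitochondria, is counted among the 4. Its signal was lower with vitamin E (766 and 860 against 968 and 1092 in ApoE-/-, adjusted p = 0.0441). It was higher in ApoE-/- than in B6 (775 and 833, adjusted p = 0.0174). Whether mice of this background make a working Nnt enzyme was not tested, so its transcript signal is not read as NADPH supply. The group means of Me1, Pgd and Nnt were highest in ApoE-/-, as were the cardiac muscle sums, whose part in them was not tested.

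Among other thiol oxidoreductases, 4 of 19 (21.1%) were lower with vitamin E than in ApoE-/- and none was higher, beside 7.65% and 8.18% of all genes. Pdia4, a protein disulphide isomerase of the endoplasmic reticulum, read 270 and 260 with vitamin E, 452 and 440 in ApoE-/- and 145 and 144 in B6, the same order as Sod3. It was 1.68-fold lower with vitamin E than in ApoE-/- (adjusted p = 0.0027) and 3.09-fold higher in ApoE-/- than in B6 (adjusted p = 2.45e-05). Msrb1, a methionine sulphoxide reductase that carries selenium, read 966 and 967, 1418 and 1387, and 838 and 831 and was 1.45-fold lower with vitamin E (adjusted p = 0.0016). The macrophage and cardiac muscle sums had this order too, and their part in these signals was not tested. Tmx4, a membrane-bound thioredoxin-like protein, was 1.62-fold lower with vitamin E (878 and 858) than in B6 (1377 and 1442), at an adjusted p of 0.000191.

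Of 12 tested genes of other selenoproteins and selenium handling, 1 was higher and 4 were lower with vitamin E than in ApoE-/-, beside 8.18% and 7.65% of all genes. Secisbp2, which directs selenocysteine insertion, was 1.49-fold higher (241 and 251 against 170 and 160, adjusted p = 0.0129), and Selenon was 1.4-fold lower (131 and 147 against 197 and 192, adjusted p = 0.043). Sephs2, which makes the selenium donor, read 801 and 728 with vitamin E and 820 and 709 in ApoE-/-, against 1321 and 1344 in B6. It was lower in each ApoE-/- group than in B6 (log2 fold changes -0.80 with vitamin E and -0.81 in ApoE-/-). Scly, the selenocysteine lyase, was higher in ApoE-/- than in B6 (275 and 240 against 65.8 and 177, log2 fold change 1.25, SE 0.40, adjusted p = 0.0397).

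Of the 9 tested genes of cystine uptake and glutathione use, none passed with vitamin E against ApoE-/-. Cth and Cbs, which make cysteine from homocysteine, met the signal filter only through B6, where they were highest, so their lower calls in ApoE-/- (log2 fold changes -1.09 and -1.23) were favoured by the filter. Cth read 53.2 and 50.5 in ApoE-/-, against 123 and 99.5 in B6. Anpep, an aminopeptidase that acts on products of glutathione breakdown, was 1.81-fold higher in ApoE-/- than in B6, and Oplah, the oxoprolinase of glutathione turnover, was 1.59-fold lower with vitamin E than in B6. Of the other 10 genes of superoxide and peroxide handling, 5 were lower in ApoE-/- than in B6 and none was higher, beside 20.8% and 21.2% of all genes. Pon1, the lipoprotein-bound paraoxonase made in the liver, read 317 and 288 with vitamin E and 368 and 303 in ApoE-/-, against 926 and 964 in B6, and was 2.83-fold lower in ApoE-/- than in B6 (adjusted p = 6.9e-05) and 3.13-fold lower with vitamin E than in B6 (adjusted p = 5.2e-05). The liver marker sums given above were also far higher in B6 than in either ApoE-/- group, and the part of liver tissue in the Pon1 signal was not tested. Of the 18 tested partners and other targets of Nrf2, 2 were higher and 1 lower with vitamin E than in ApoE-/-, beside 8.18% and 7.65% of all genes. In ApoE-/- 3 were higher and 5 lower than in B6, where 21.2% of all genes were higher and 20.8% lower.

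**Figure D4:**
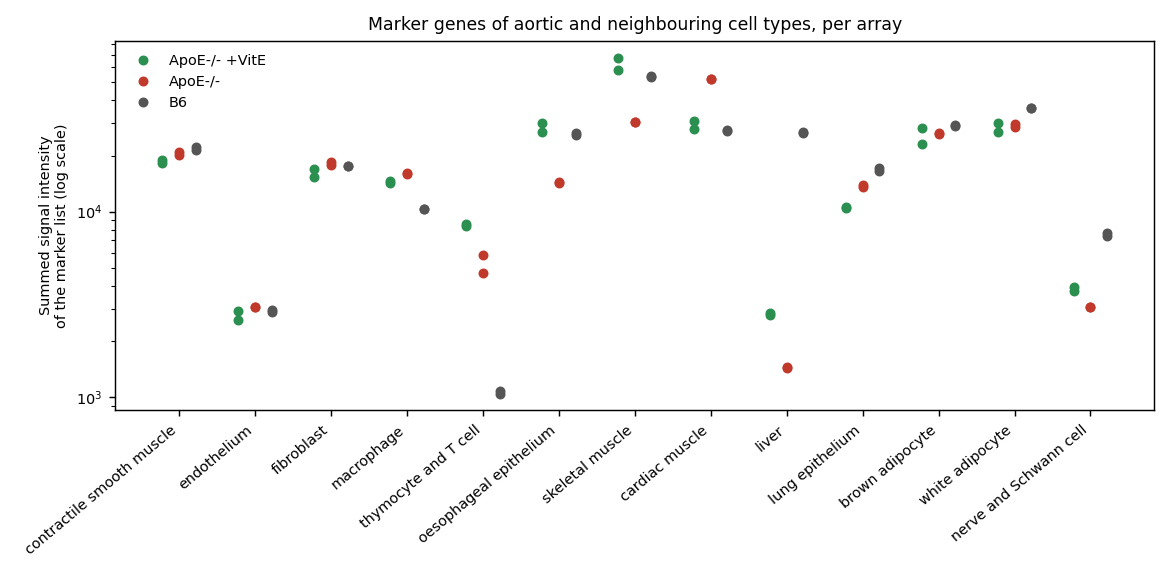
Summed signal intensity (y axis, log scale) of marker gene lists of aortic and neighbouring cell types on each array, with vitamin E-treated ApoE-/- (green) left of ApoE-/- (red) and B6 (grey) for each list. Cardiac muscle sums are highest in ApoE-/- at 51717 and 52185, skeletal muscle and oesophageal sums are lowest there, and liver sums are highest in B6 at 26529 and 26747.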

How the data were processed

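Total RNA of pooled mouse aortas was hybridised to Affymetrix MG430 2.0 arrays, 2 per group, and the deposited values are linear signal intensities that the authors obtained with GCOS, scaled to a common target, without detection calls in the table used here. Values under 20 were set to 20, log2 was taken, and 17909 probe sets whose mean reached 100 in any group were kept. A fit with limma 3.58.1 in R 4.3.3 gave 1 mean per group over all 6 arrays, with a trend in the moderation and 3 residual degrees of freedom, and p-values were adjusted by Benjamini-Hochberg over all 17909 probe sets with a threshold of 0.05. Fold changes are differences of mean log2 signals. The p-values measure the spread among these pools only, and the number of arrays limits the precision. The fit was checked on simulated data. Probe sets were named through the platform annotation, in which 34945 had 1 symbol, 932 several and 9160 none, and 34741 of the first were matched to RefSeq.

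The members and lists were chosen with earlier results of these data known. All members were to be named by the probe set with the highest mean signal, with array values for those differing at least 1.3-fold, full statistics for up to 8 per comparison, and further probe sets where their call differed. Of the other lists, the 6 genes with the largest differences among those passing were to be named in each comparison, and Nnt was added after its values were seen. Alternatives were another normalization, floor or filter, no trend, a fit of 2 groups, a replicate block, each array left out, and the methods' t-test. A split of the members by selenocysteine was not run, as no protein sequences were used here.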

Additional observations from a re-analysis of the deposited data

How the results depend on the processing

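No redox gene changed direction between calls under any alternative, and 4, 7 and 8 of the 10, 20 and 13 genes called in the comparisons of vitamin E with ApoE-/-, ApoE-/- with B6 and vitamin E with B6 were called with each array left out. In that order of comparisons, 2777, 7305 and 7368 probe sets passed in all. Without the filter on low signals, which tests 45037 probe sets, 949, 4494 and 4464 passed, with 2, 13 and 11 redox probe sets instead of 14, 32 and 23, and 2, 9 and 8 redox genes. A fit of only the vitamin E and ApoE-/- arrays called 1700 probe sets. The methods' t-test called 0, 2156 and 67 probe sets after Benjamini-Hochberg adjustment, with 0, 12 and 0 redox probe sets and 0, 8 and 0 redox genes, where 13, 26 and 16 redox probe sets had an unadjusted p under 0.05 and 3551, 7228 and 5802 of all did. At its own thresholds of p at most 0.01 and 2-fold it called 184, 789 and 586 probe sets, 0, 4 and 2 redox probe sets and 0, 2 and 2 redox genes. With each array left out in turn, 817 to 3506, 4326 to 8777 and 4332 to 7470 probe sets in all, 7 to 22, 15 to 41 and 13 to 28 redox probe sets, and 5 to 15, 9 to 27 and 8 to 16 redox genes passed. The replicate numbers in the labels did not pair the samples (correlations of replicate differences 0.055, 0.054 and -0.098). With the replicate block 9, 20 and 14 redox genes passed. Median centring put 33.7%, 43.2% and 31.4% of called probe sets on the higher side, instead of 55%, 53.1% and 53.3%. The 2 pools per group limit what could be detected, and dim probe sets such as those of Hmox1, Nqo1 and Gpx7 lie close to the signal limit of 100.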

Other observations

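Grouped by where their products act, a grouping made after the values were seen and therefore given without a test, the 7 redox genes of mitochondrial enzymes (Prdx3, Sod2, Txn2, Txnrd2, Glrx2, Glrx5 and Msrb2) had a median log2 fold change of -0.42 with vitamin E against untreated ApoE-/- aortas. Of the 7, 4 were lower (Prdx3, Txn2, Txnrd2 and Msrb2) and none was higher, where 7.65% of all genes were lower and 8.18% higher. The grouping followed the values, so the share of all genes cannot weigh these 4 genes. As given above, each of the 4 calls was lost with an untreated ApoE-/- array left out. All 8 cardiac muscle markers were lower with vitamin E too (median log2 fold change -0.87), and their part in these signals was not tested. Between ApoE-/- and B6 aortas 2 of the 7 were higher and 2 lower, with a median of 0.04, where 21.2% of all genes were higher and 20.8% lower. The 2 genes of secreted enzymes went opposite ways between ApoE-/- and B6, with Sod3 3.40-fold higher and Gpx3 1.38-fold lower. Of the 3 genes of the endoplasmic reticulum, Prdx4 was higher and Gpx8 lower in ApoE-/- than in B6, while Gpx7 did not pass.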
